A study of Mus musculus with 6 samples.

Results

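Genes of homologous recombination, the Fanconi pathway and the DNA damage checkpoint were followed in a mouse model of T-lymphoblastic leukemia (T-ALL) caused by active Notch. The list held 43 genes chosen by name, and 40 of them had a probe set annotated to that gene alone, out of 19938 genes on the array with such a probe set. All 40 were bright enough to be tested. Claspn, Rbbp8 and Xrcc2 were not analysed here. H2afx is listed on the array under its current symbol, H2ax.

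Leukemias had been started by retroviral transfer of Notch-IC, the active intracellular part of Notch, into hematopoietic progenitors carrying a tamoxifen-inducible Cre-ER transgene and the conditional Zfx fl/y allele. The 3 independent lines, 14843, 14844 and 14846, were passed to sublethally irradiated recipients. Starting 10 days after transplant, recipients received Vehicle (labelled ZFX flox) or 5 mg of Tamoxifen daily for 3 days (labelled ZFX null), and sorting of GFP+ leukemia cells followed the final dose by 48 h. Each of the 3 lines gave 1 array per treatment, so that each group held 3 arrays, and both groups carried Notch-IC, Cre-ER and the Zfx fl/y allele. No group received Tamoxifen without Cre or without the conditional allele. An effect of the drug, of Cre, which can cut DNA outside its intended sites, and of loss of Zfx therefore cannot be told apart. Each line is the progeny of 1 primary leukemia, and the sources used here name no ages or strains.

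The Zfx probe set read 10.98, 10.90 and 10.72 log2 intensity in Vehicle arrays of lines 14843, 14844 and 14846, and 10.96, 10.98 and 10.86 in Tamoxifen arrays. Its difference was 0.07 ± 0.06 (SE, limma adjusted p = 0.48), and where its probes lie relative to the deleted part is not given in the sources used here, so it does not check the labels. Of 12 T-ALL markers 11 were measured, all between 10.53 and 13.49 log2 intensity. The summed intensity of 10 myeloid markers ran from 1759 to 2147 in Vehicle arrays and from 1851 to 2476 in Tamoxifen arrays, with Csf1r, Ly6g, Cd14 and Adgre1 below the filter on dim genes. B cell markers summed to between 586 and 1061 under Vehicle and to between 657 and 734 under Tamoxifen. Erythroid markers summed to between 600 and 615 and between 594 and 650, and stromal and endothelial markers to between 3117 and 3375 and between 3348 and 3521. Pecam1 was the brightest stromal or endothelial marker in every array, between 10.84 and 11.19 log2 intensity, while Cxcl12, Kdr and Lepr lay below the filter. No T-ALL, myeloid, B cell, erythroid or stromal marker above the filter passed the treatment test by its adjusted p. Unadjusted p-values were under 0.05 for 2 of 6 tested myeloid markers (33.3%), against 23.8% of all tested genes. These were Lyz2, at 0.24 ± 0.08 (SE, limma adjusted p = 0.13), and Itgam, at 0.29 ± 0.09 (0.13). Both had positive differences in all 3 lines (33.3% of the 6, background 28.6%). The other tested myeloid markers, S100a8, S100a9, Mpo and Elane, gave 0.03, 0.01, -0.01 and -0.02. Among T-ALL markers the unadjusted p was under 0.05 for 1 of 11 (9.09%, background 23.8%). This was Ptcra, at -0.27 ± 0.08 (SE, limma adjusted p = 0.12), negative in all 3 lines. Differences were negative for 9 of the 11 T-ALL markers and positive for 2 (18.2%), against 58.6% positive among all tested genes. The part of these markers in the results below was not tested. In bulk RNA, fewer cells of a type and less RNA per cell cannot be told apart.

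As background, a DNA break is first sensed by the Mre11a, Rad50 and Nbn complex, which activates the kinase Atm, while single-stranded DNA at stalled forks activates the kinase Atr. These kinases mark chromatin around the lesion by phosphorylating H2ax and pass the signal to Chek2 and Chek1, which hold the cell cycle. Homologous recombination then resects the ends, and Brca2, helped by Brca1, Bard1, Palb2 and a family that includes Rad51b, Rad51c and Rad51d, prepares them for strand invasion. The Fanconi proteins unhook crosslinks between DNA strands and feed them into the same repair. Many of these genes are transcribed mainly in S phase under control of E2F factors, and dividing thymocytes and T-ALL blasts express them.

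Promoters were read from RefSeq (GRCm38.p6) for the genes of the list with an entry, 33 of 43, as the 250 bases before the transcription start. They are shown for Brca2, the only changed gene of the list that has an entry, and for Rad51c, the gene closest to the threshold among those not called. Capitals mark letters of the searched motifs on either strand, and both sequences run in the direction of the gene.
Brca2 (chr5:150522371-150522620, plus strand): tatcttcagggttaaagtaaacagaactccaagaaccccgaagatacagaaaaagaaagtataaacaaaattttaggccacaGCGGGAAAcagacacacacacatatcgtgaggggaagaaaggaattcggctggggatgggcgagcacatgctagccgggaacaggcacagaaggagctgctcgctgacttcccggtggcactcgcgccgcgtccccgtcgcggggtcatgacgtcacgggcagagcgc
Rad51c (chr11:87404955-87405204, minus strand): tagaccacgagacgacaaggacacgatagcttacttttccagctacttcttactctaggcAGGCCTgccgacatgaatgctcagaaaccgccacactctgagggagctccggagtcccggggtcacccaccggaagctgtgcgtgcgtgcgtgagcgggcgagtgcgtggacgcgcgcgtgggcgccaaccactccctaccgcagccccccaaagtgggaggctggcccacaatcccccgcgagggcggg

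Both motifs were searched on either strand. The core letters of the Zfx motif, AGGCCT, were found before Bard1, Fancl, Mre11a and Rad51c, which is 4 of 33 genes of the list (12.1%) against 9.89% of all 27025 genes with an entry. E2F-type letters (TTTCCCGC, TTTCGCGC, TTTGCCGC or TTTGGCGC) were found before Bard1, Brca2, Chek2, Fancg, Mdc1 and Topbp1, or 6 of 33 genes (18.2%) against 2.16% of all genes with an entry. In Brca2 the match begins 168 bases before the start, on the opposite strand, and in Rad51c the AGGCCT begins 190 bases before it. These are matches of letters and not sites of binding.

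Under Tamoxifen, 3 of the 40 genes changed. The chromatin histone H2ax and the recombination gene Rad51d fell, by 1.32-fold and 1.23-fold, and Brca2, a central recombination gene, rose 1.26-fold. Calls were made at an adjusted p under 0.05 in limma over all 13956 tested genes, with line as a block. The 3 genes are 7.50% of the list, against 6.23% of all tested genes that were called, so the list was called at about the background share. Without line as a block 0 of the 40 were called, 8 having an unadjusted p under 0.05, a count not made over all genes. Without line 14843, 14844 or 14846, the counts were 0, 0 and 1. Over all 13956 tested genes, 870 were called in the reported fit and 295 without the block. Without line 14843, 14844 or 14846, 498, 70 and 669 of all tested genes were called. The 2 decreases compare with 4.93% of all genes called lower and the 1 increase with 1.3% called higher.

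The differences among the 40 genes were small and ran from -0.40 to 0.34 on the log2 scale. Their median was 0.07, against 0.03 over all tested genes, and it was 0.03 without line 14846. Positive differences were found in 27 of the 40 genes (67.5%), against 58.6% of all tested genes. For 10 of the 40 genes, 7 higher and 3 lower under Tamoxifen, no value of one group lay within the range of the other, beside a background of 23.7%. The sign was positive in all 3 lines for 19 genes (47.5%, background 28.6%), negative in all 3 for 5 genes (12.5%, background 20.2%) and mixed for 16. Of all tested genes, 48.8% kept one sign in all 3 lines. Unadjusted p-values were under 0.05 for 13 genes (32.5%, background 23.8%), of which 10 were higher and 3 lower. Adjusted p-values were under 0.1 for 7 genes (17.5%, background 11.8%). No test was made of the list as a whole.

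**Figure D1:**
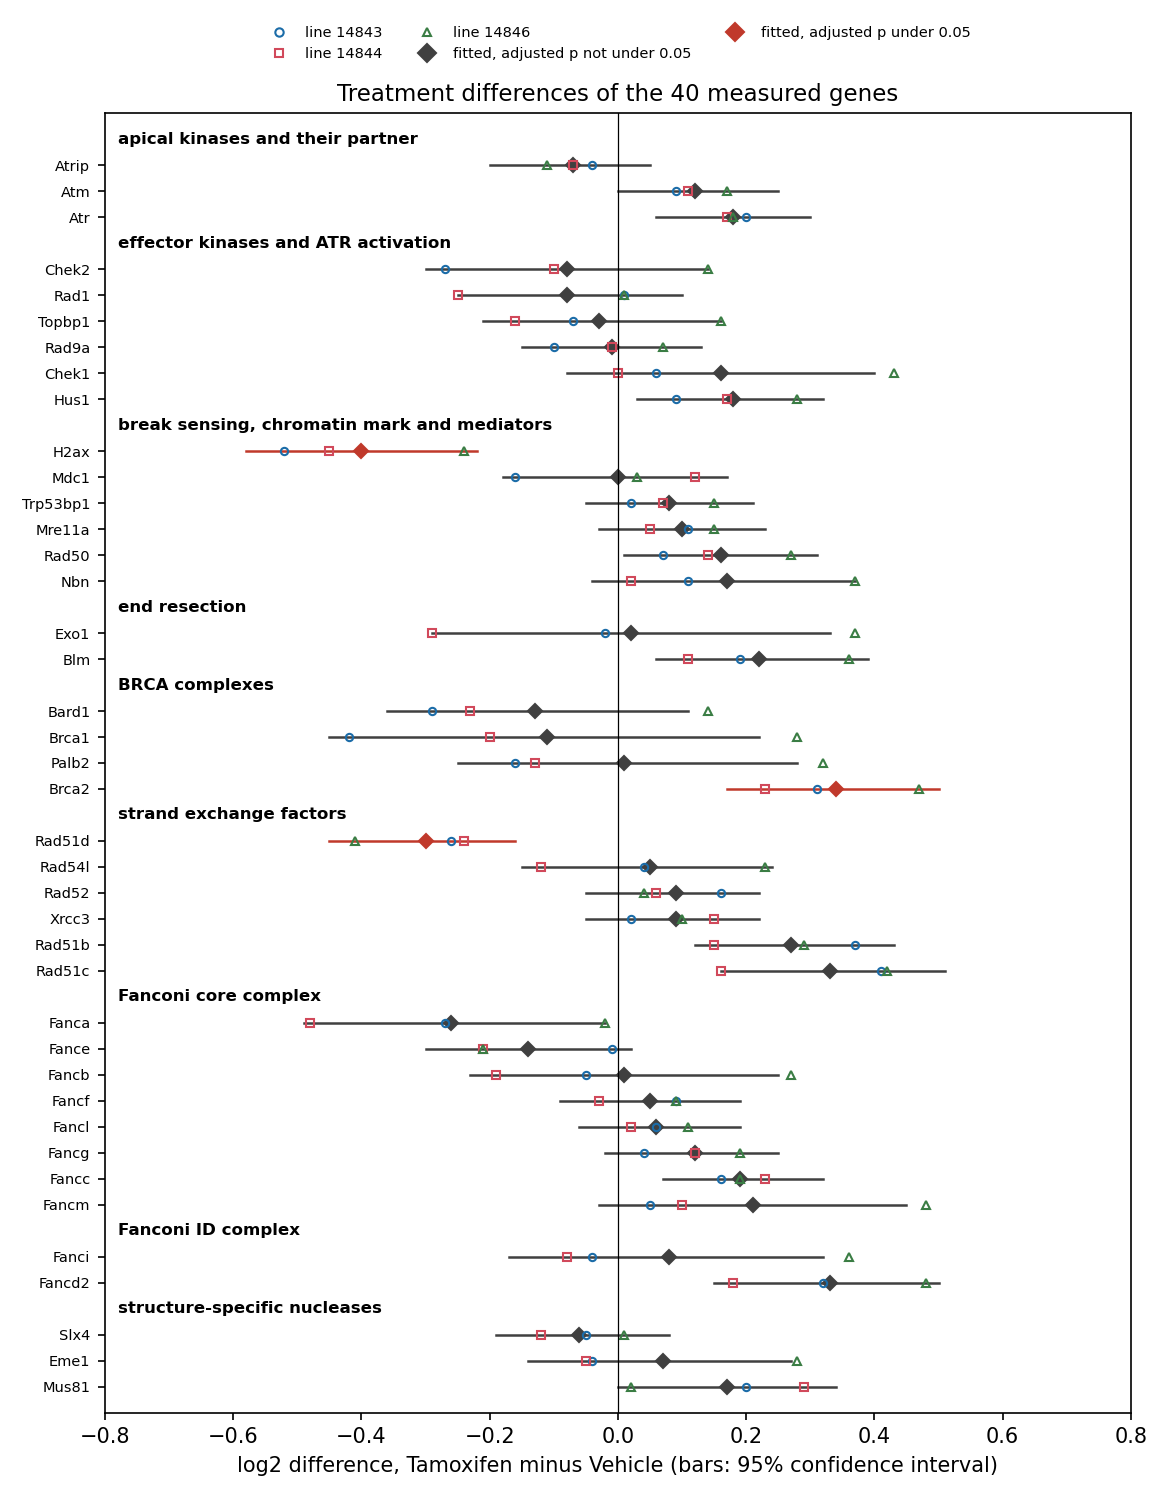
Fitted log2 difference in intensity, Tamoxifen minus Vehicle, for the 40 measured genes grouped by role (diamonds, with 95% confidence intervals from limma), with the difference within each of the 3 lines as open symbols. H2ax and Rad51d (lower) and Brca2 (higher) are red, and line 14846 is often the rightmost symbol.

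Among genes that sense breaks and mark chromatin, H2ax stood apart. H2ax, whose phosphorylated form marks chromatin around a break, read 11.74, 11.87 and 11.77 log2 intensity in Vehicle arrays of lines 14843, 14844 and 14846, and 11.23, 11.42 and 11.53 in their Tamoxifen arrays. Every Vehicle array lay above every Tamoxifen array, and line 14846 had the smallest drop. The mean went from 11.79 ± 0.06 to 11.39 ± 0.15 (SD, n = 3 each), a log2 difference of -0.40 ± 0.07 (SE, limma adjusted p = 0.037). The call ended without line as a block (adjusted p = 0.087) and without line 14843 (0.1) or line 14844 (0.2). H2ax is also among 19 or 20 symbols of a pair of probe sets shared with other histone genes. Those shared probe sets differed by 0.10 or less in size in each of the 3 lines, at means of 14.08 and 13.85 in Vehicle arrays and 14.11 and 13.87 in Tamoxifen arrays. How far the H2ax probe set responds to other histone transcripts was not tested.

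The other 5 genes of this group did not pass the test. The nuclease complex gave 0.16 ± 0.06 (SE) for Rad50, a structural ATPase, 0.10 ± 0.05 for the nuclease Mre11a and 0.17 ± 0.08 for Nbn, its regulatory subunit. All 3 had positive differences in each line. Rad50 read 11.11, 11.10 and 10.97 in Vehicle arrays and 11.19, 11.25 and 11.24 in Tamoxifen arrays, without overlap. A second, dimmer probe set for Nbn gave 0.14 ± 0.05, close to the first. The mediators Trp53bp1, which shields broken ends, and Mdc1, which binds phosphorylated H2ax, gave 0.08 ± 0.05 and 0.00 ± 0.07.

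The apical kinases had small positive differences that did not pass the test. Atr read 9.96, 10.02 and 10.08 log2 intensity in Vehicle arrays and 10.15, 10.19 and 10.25 in Tamoxifen arrays of lines 14843, 14844 and 14846. The 3 lines shifted by nearly the same amount, 0.20, 0.17 and 0.18, and the groups did not overlap. The fitted difference was 0.18 (95% confidence interval 0.06 to 0.30), with a limma adjusted p of 0.1. Atm read 10.46, 10.56 and 10.61 against 10.55, 10.66 and 10.79, a difference of 0.12 ± 0.05 (SE, limma adjusted p = 0.22), and its groups overlapped. Atrip, which recruits Atr to single-stranded DNA, gave -0.07 ± 0.05.

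Effector kinases showed no called change, and their sign depended on the line. Chek1, the kinase activated by Atr, read 11.34, 11.55 and 11.21 under Vehicle and 11.40, 11.55 and 11.64 under Tamoxifen. Its shift was seen in line 14846, at 0.43, with 0.06 in line 14843 and a value near 0 in line 14844. The fitted difference was 0.16 (95% confidence interval -0.08 to 0.40, limma adjusted p = 0.36). Chek2, the kinase activated by Atm, read 9.26, 9.36 and 9.31 against 8.99, 9.26 and 9.45, with differences of -0.27, -0.10 and 0.14 in the 3 lines. Its fitted difference was -0.08 (95% confidence interval -0.30 to 0.14), so neither kinase showed a shift that its spread allows to be told from 0. Topbp1, the activator of Atr, gave -0.03 ± 0.08 (SE). Of the checkpoint clamp, Hus1 gave 0.18 ± 0.06, Rad9a -0.01 ± 0.06 and Rad1 -0.08 ± 0.07. Of the 6 measured genes in this group 0 were called by limma, and 1, Hus1, had an unadjusted p under 0.05, at 0.027. These shares, 0 and 16.7%, compare with 6.23% and 23.8% of all tested genes.

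Within the BRCA complexes Brca2 rose, while the values of its partners differed in sign between lines. Brca2 read 9.92, 9.94 and 9.58 log2 intensity in Vehicle arrays and 10.22, 10.17 and 10.05 in Tamoxifen arrays. Every Tamoxifen array lay above every Vehicle array, and line 14846 was the lowest of each group. The mean went from 9.81 ± 0.20 to 10.15 ± 0.09 (SD, n = 3 each), a log2 difference of 0.34 ± 0.07 (SE, limma adjusted p = 0.047). The call ended without the block (adjusted p = 0.21), when any of the 3 lines was left out (0.097 to 0.14), with no filter on dim genes (0.053) and with each array centred on its median (0.061).

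Brca1, a ubiquitin ligase that promotes resection, read 10.13, 10.29 and 9.85 in Vehicle arrays and 9.71, 10.09 and 10.13 in Tamoxifen arrays. It was lower in lines 14843 and 14844, by -0.42 and -0.20 on the log2 scale, and higher in line 14846, by 0.28. Bard1, its obligate partner, followed the same order, with -0.29, -0.23 and 0.14, and Palb2, which bridges Brca1 and Brca2, gave -0.16, -0.13 and 0.32. None of the 3 passed the test. The other single-gene probe sets of Bard1, both dimmer, gave fitted differences of 0.13 ± 0.05 and 0.00 ± 0.09 (SE), against -0.13 ± 0.09 for the probe set used, so no direction is given for it.

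The strand exchange factors had values in opposite directions. Rad51d read 9.45, 9.55 and 9.59 log2 intensity in Vehicle arrays and 9.19, 9.31 and 9.19 in Tamoxifen arrays, without overlap. The mean went from 9.53 ± 0.07 to 9.23 ± 0.07 (SD, n = 3 each), a log2 difference of -0.30 ± 0.06 (SE, limma adjusted p = 0.045). The call ended without the block (adjusted p = 0.077), when any of the 3 lines was left out (0.1 to 0.17), after quantile normalization (0.056) and under eBayes with trend and robust settings (0.062).

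Rad51c and Rad51b, found in one complex with Rad51d, had values in the opposite direction and missed the threshold. Rad51c read 8.76, 9.11 and 8.85 against 9.17, 9.27 and 9.27, a log2 difference of 0.33 (95% confidence interval 0.16 to 0.51, limma adjusted p = 0.059). Rad51b read 8.18, 8.41 and 8.29 against 8.55, 8.57 and 8.59, a difference of 0.27 (95% confidence interval 0.12 to 0.43, limma adjusted p = 0.071). Neither gene had overlapping groups, and line 14844 gave the smallest shift for both, 0.16 and 0.15. Of the rest, Xrcc3, which acts with Rad51c, gave 0.09 ± 0.05 (SE), Rad52, which anneals single strands, 0.09 ± 0.05, and the strand-exchange motor Rad54l 0.05 ± 0.08.

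**Figure D2:**
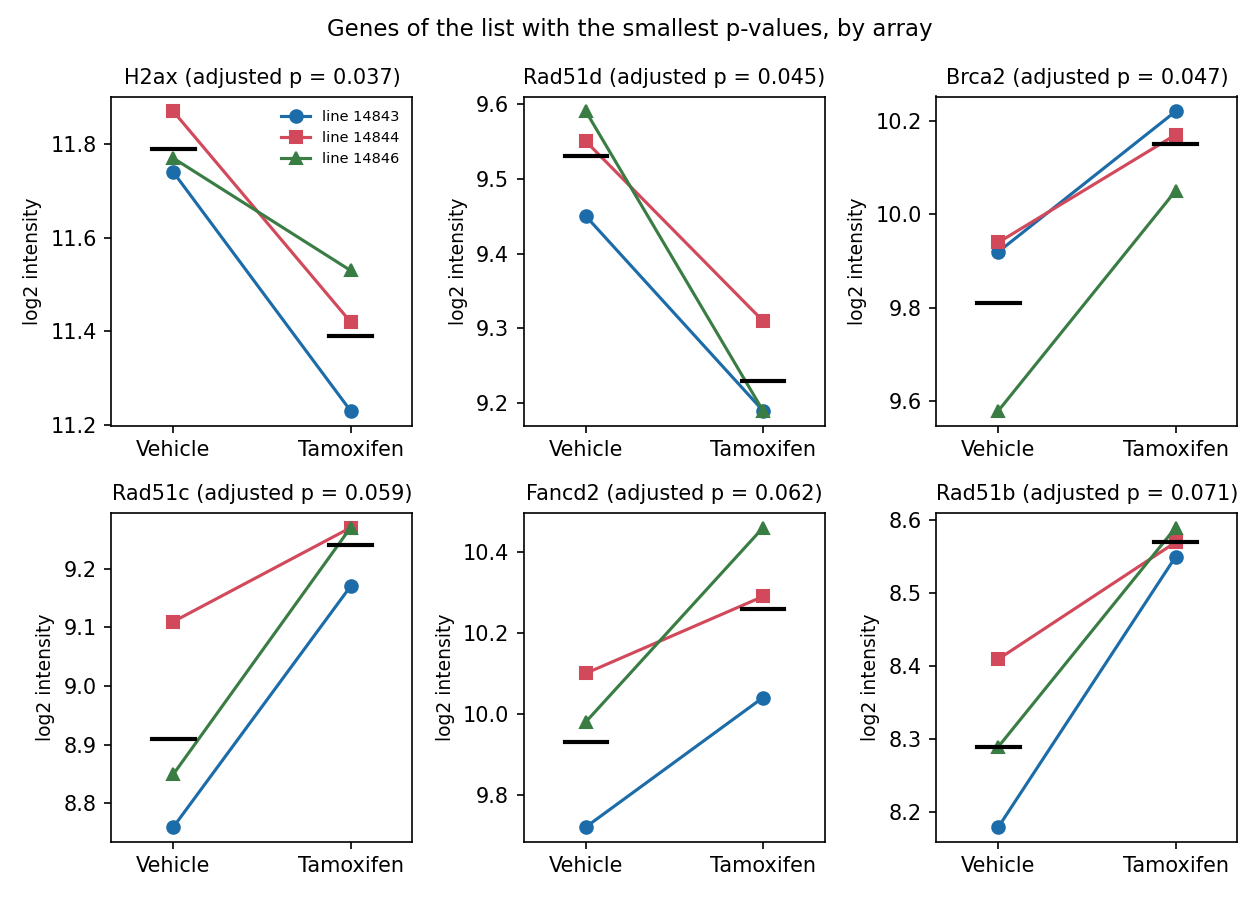
Log2 intensity by array for the 6 genes of the list with the smallest p-values, Vehicle and Tamoxifen, with a line joining the arrays of each leukemia and a black bar at each group mean (n = 3). Axes differ between panels and do not start at 0, and H2ax and Rad51d go down in every line while Brca2, Rad51c, Fancd2 and Rad51b go up.

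Of the resection genes, the helicase Blm, which also dissolves joint molecules, read 10.40, 10.54 and 10.28 under Vehicle and 10.59, 10.65 and 10.64 under Tamoxifen. Its groups did not overlap, but its difference of 0.22 ± 0.07 (SE) had a limma adjusted p of 0.12. The exonuclease Exo1 read 9.87, 10.30 and 9.81 against 9.85, 10.01 and 10.18, with -0.02, -0.29 and 0.37 in the 3 lines. Its arrays thus spread more between lines within a group, with an SD of 0.27 under Vehicle, than between the group means, 9.99 and 10.01.

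None of the genes of the list with a Fanc symbol was called, beside a background of 6.23% of all tested genes. Fancd2, which with Fanci forms the clamp that is ubiquitinated at crosslinks, read 9.72, 10.10 and 9.98 in Vehicle arrays and 10.04, 10.29 and 10.46 in Tamoxifen arrays. It was higher in each line but its groups overlapped, and the difference was 0.33 (95% confidence interval 0.15 to 0.50, limma adjusted p = 0.062). Fanci read 9.06, 9.42 and 9.24 against 9.02, 9.34 and 9.60, with -0.04, -0.08 and 0.36 in the 3 lines. The partners thus differed in pattern, Fancd2 with a positive value in every line and Fanci in line 14846 alone, a contrast that was not tested.

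In the core complex, which ubiquitinates that clamp, fitted log2 differences of the 8 genes ran from -0.26 to 0.21. By limma 0 were called (background 6.23%), and 2 had an unadjusted p under 0.05 (25.0%, background 23.8%). These were Fanca, at -0.26 ± 0.09 (SE), with 8.96, 9.35 and 9.09 under Vehicle and 8.69, 8.87 and 9.07 under Tamoxifen, and Fancc, at 0.19 ± 0.05, with 8.47, 8.53 and 8.23 against 8.63, 8.75 and 8.42. Both overlapped between the groups. Fancl, the ubiquitin ligase subunit, gave 0.06 ± 0.05, and the translocase Fancm, which lands on stalled forks, 0.21 ± 0.10. Within lines, Fancm gave 0.48 in line 14846 against 0.05 and 0.10 in lines 14843 and 14844. The structural subunits Fancb, Fance, Fancf and Fancg gave 0.01 ± 0.10, -0.14 ± 0.06, 0.05 ± 0.05 and 0.12 ± 0.06.

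Nucleases that cut joint molecules had no called change by limma (background 6.23%), and 1 of the 3 had an unadjusted p under 0.05 (33.3%, background 23.8%). Mus81 gave 0.17 ± 0.07 (SE, limma adjusted p = 0.21), its partner Eme1 0.07 ± 0.08 and the scaffold Slx4 -0.06 ± 0.05. Mus81 was higher in each line and Eme1 in line 14846 alone.

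The response of the list was not alike in the 3 leukemias. Within line 14846, 35 of the 40 genes were higher in the Tamoxifen array, against 23 in line 14843 and 20 in line 14844. Of all 13956 tested genes, 7722 were higher in line 14846, 7605 in line 14843 and 7897 in line 14844. The median within-line difference was 0.17 in line 14846, 0.03 in line 14843 and 0.01 in line 14844, while over all tested genes it was 0.02 in each line. For 29 of the 40 genes (72.5%) the largest of the 3 within-line differences was that of line 14846, against 34.4% of all tested genes. A value below 0 in lines 14843 and 14844 and above 0 in line 14846 was found for 11 genes (27.5%), against 8.09% of all tested genes. These were Brca1, Bard1, Palb2, Chek2, Topbp1, Rad9a, Exo1, Fancb, Fanci, Eme1 and Slx4. Each line has 1 array per treatment, so this difference between lines has no replicate and was not tested.

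Genes of proliferation followed the same order, and other related lists except base excision also had their highest median in line 14846. Of 19 tested proliferation genes, 18 were higher in the Tamoxifen array of line 14846, against 8 in line 14843 and 2 in line 14844, with medians of 0.21, -0.01 and -0.06. Mki67, a marker of cycling cells, read 13.01, 12.91 and 12.64 in Vehicle arrays and 12.84, 12.86 and 12.96 in Tamoxifen arrays. Line 14846 thus had the lowest Mki67 of the Vehicle arrays and the highest of the Tamoxifen arrays. Not all proliferation genes shared this order. Under Vehicle, Mcm2 read 12.25, 12.57 and 12.46 and Plk1 11.85, 12.11 and 12.02, both lowest in line 14843. Over the 3 lines 0 of the 19 genes were called by limma (background 6.23%) and 0 had an unadjusted p under 0.05 (background 23.8%). The smallest p-values were those of the S phase factor E2f1, at -0.20 ± 0.08 (SE), and the mitotic kinase Plk1, at 0.14 ± 0.07. Fitted differences were positive for 16 of the 19 genes (84.2%, background 58.6%). The part of proliferation in the values of the recombination and Fanconi genes was not tested. For H2ax and Brca2, too, line 14846 gave the highest of the 3 differences, while for Rad51d it gave the lowest. Of the lists described below, further recombination and Fanconi genes had medians of 0.05, -0.01 and 0.15 in lines 14843, 14844 and 14846. Further checkpoint genes had -0.04, -0.06 and 0.16, and p53 targets 0.02, 0.05 and 0.16. End joining genes had 0.02, 0.06 and 0.07, and base excision genes 0.11, 0.00 and 0.03.

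**Figure D3:**
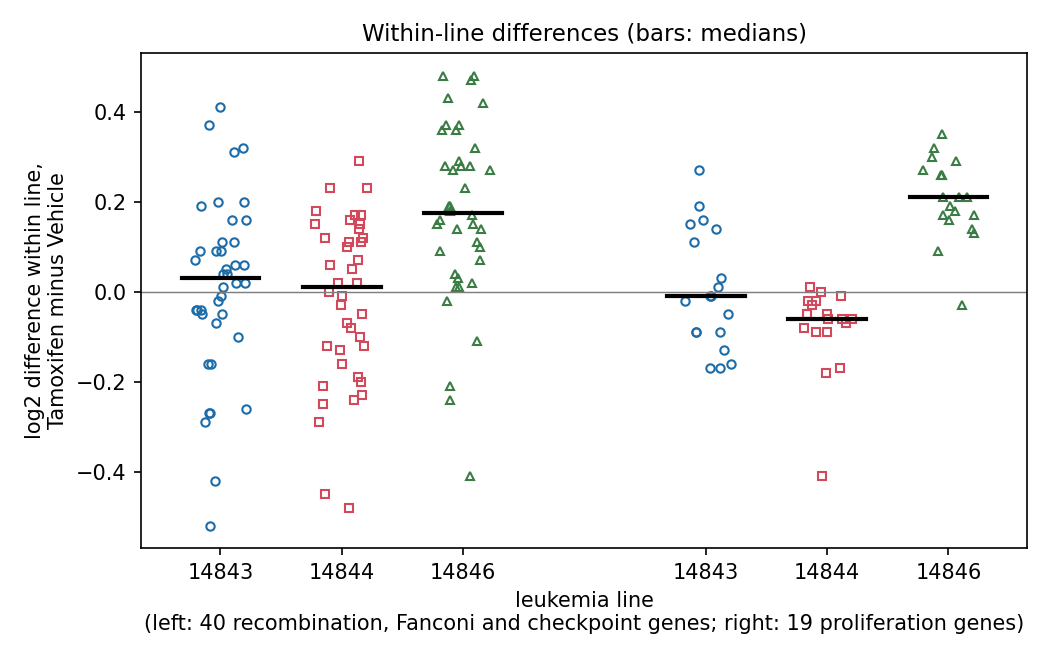
Log2 difference within each leukemia line, Tamoxifen minus Vehicle, for the 40 recombination, Fanconi and checkpoint genes (left) and for 19 proliferation genes (right), 1 symbol per gene with the median as a black bar. In both lists line 14846 has the highest median, 0.17 and 0.21, and the other lines lie between -0.06 and 0.03.

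On average over the treatments, the lines were not told apart by these genes. None of the 40 passed limma's moderated F test of the line terms, which called 3.11% of all tested genes, and 7 (17.5%) had an unadjusted p under 0.05, against 19.3% of all tested genes. The smallest adjusted p was 0.096, for Rad1, which read 9.28 in both arrays of line 14843 and between 9.50 and 9.75 in the arrays of the other lines. Fanci and Fancd2 had line means of 9.04 and 9.88 in line 14843, 9.38 and 10.19 in line 14844, and 9.42 and 10.22 in line 14846. Line 14843 was thus lowest for both, with adjusted p-values of 0.23 and 0.16 in the same F test.

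Other genes of the pathway came from lists written by name. Of 31 further recombination and Fanconi genes tested, 1 fell and 0 rose (3.23%), against 6.23% of all tested genes called, 4.93% lower and 1.3% higher. Their median difference was 0.07, and 11 (35.5%) had an unadjusted p under 0.05, 6 higher and 5 lower, against a background of 23.8%. This was Wrn, the Werner helicase, which read 10.23, 10.29 and 10.28 log2 intensity under Vehicle and 9.81, 9.98 and 9.96 under Tamoxifen. Its difference was -0.35 ± 0.05 (SE, limma adjusted p = 0.026), and the call ended without the block (0.055) and when any of the 3 lines was left out (0.056 to 0.14). Dna2, a resection nuclease, gave 0.30 ± 0.06 with an adjusted p of 0.052, short of the threshold, which it passed under 3 alternatives (0.043 to 0.047).

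Of 19 further checkpoint and damage signalling genes, 1 fell and 1 rose, with a median of 0.02. The 2 are 10.5% of that list, against 6.23% of all tested genes called, 4.93% lower and 1.3% higher. Tlk2, a kinase that phosphorylates a histone chaperone in S phase, read 10.58, 10.41 and 10.31 under Vehicle and 9.84, 9.83 and 9.66 under Tamoxifen. It fell 1.58-fold, by -0.66 ± 0.06 on the log2 scale (SE, limma adjusted p = 0.007), more than any gene of the 40. Mad2l2, a subunit of the complex that limits resection and of a translesion polymerase, read 9.38, 9.47 and 9.45 against 9.82, 9.88 and 9.82. It rose by 0.41 ± 0.05 (SE, limma adjusted p = 0.015), more than Brca2. Tlk2 and Mad2l2 kept their calls without the block, at adjusted p-values of 0.029 and 0.023, and lost them without line 14844, at 0.061 and 0.12.

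Other repair routes held 1 more change. Of 15 base excision and single-strand break repair genes 1 rose and 0 fell (6.67%, background 6.23%), with a median of 0.02. Mutyh, a glycosylase that removes adenine opposite oxidised guanine, read 8.96, 9.04 and 9.18 against 9.40, 9.46 and 9.59. It rose 1.34-fold, by 0.42 ± 0.05 (SE, limma adjusted p = 0.013), and the call ended without the block (0.062) and without line 14844 (0.11). Of 8 end joining genes 0 were called by limma (background 6.23%) and 3 had an unadjusted p under 0.05 (37.5%, background 23.8%), all higher. Among these were Xrcc5, the large Ku subunit, at 0.28 ± 0.07, and the DNA-dependent kinase Prkdc, at 0.22 ± 0.06.

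Targets of p53, a readout of the damage response, had no called member. Of 12 tested, 0 were called by limma, beside a background of 6.23%, and 3 had an unadjusted p under 0.05 (25.0%, background 23.8%), all higher. Differences were positive for 10 of the 12 (83.3%, background 58.6%), with a median of 0.09. They were positive in all 3 lines for 6 of the 12 (background 28.6%) and negative in all 3 for 0 (background 20.2%). Of the 12, 9 were higher in line 14843, 8 in line 14844 and 11 in line 14846, with medians of 0.02, 0.05 and 0.16. The proliferation list had a similar share of positive differences, 84.2%. Gadd45a gave 0.21 ± 0.08 (SE) and the cell death gene Bbc3 0.15 ± 0.06, both at an adjusted p of 0.19. The feedback regulator Mdm2 read 10.79, 10.82 and 10.67 under Vehicle and 10.81, 10.85 and 10.81 under Tamoxifen, a difference of 0.06 (95% confidence interval -0.07 to 0.20). Cdkn1a shares its probe set with other symbols and was not analysed here.

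**Figure D4:**
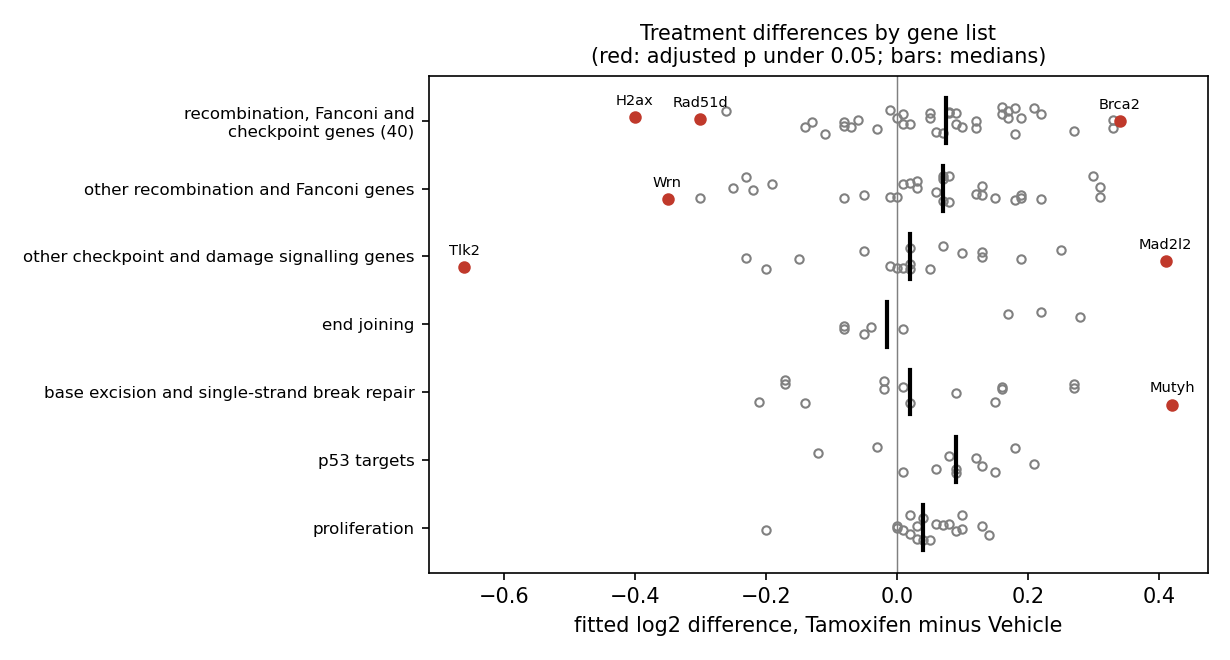
Fitted log2 difference, Tamoxifen minus Vehicle, for the 40 recombination, Fanconi and checkpoint genes and for 6 related lists, 1 symbol per tested gene, with the median of each list as a black bar and called genes in red. Medians lie between -0.01 and 0.09, and the 7 called genes are 4 lower (H2ax, Rad51d, Wrn, Tlk2) and 3 higher (Brca2, Mad2l2, Mutyh).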

How the data were processed

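The deposited values are probe set intensities of 6 one-colour Affymetrix arrays, which the authors made, per the submitters' processing notes, by RMA in Affymetrix Expression Console 1.1. Their linear scale was read from the values, with array medians between 201.6 and 208.3. RMA equalises the distribution of signal across arrays, so a shift of all genes together is removed. Arrays give no read depth, and precision is limited by how many there are.

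Of 35556 probe sets, 21789 had 1 gene symbol, 1621 several and 12146 none in the platform annotation used here. A gene with several was represented by its brightest probe set on average, and log2 was taken here. Genes at or above the 30th percentile of mean level, 6.70 log2 intensity, were tested, 13956 in all, with limma 3.58.1 in R 4.3.3 (line and treatment as terms, default eBayes, Benjamini-Hochberg). Each gene had 2 residual and 3.47 prior degrees of freedom. The block follows the series design, in which each line went to both treatments, and deviations of same-line arrays correlated at 0.637, 0.682 and 0.676.

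The genes, lists and tests were chosen with earlier results of these data known. Genes called between treatments or lines, the 12 smallest p-values, 9 fixed genes and the brightest and dimmest of each role were named, others by values. Of the related lists, called genes or else the 2 smallest p-values were named, while Dna2, Mdm2, Mki67, Lyz2, Itgam and Ptcra were chosen after seeing their values. The fit was also tested on simulated data.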

Additional observations from a re-analysis of the deposited data

How the results depend on the processing

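Each alternative changed 1 choice, except that the trend and robust settings of eBayes were switched on together. Of the 40 genes, 3 were called in the fit reported and 0 without the replicate block (8 with an unadjusted p under 0.05), and leaving out a line gave 0 to 1, with H2ax called without line 14846. Over all genes the count was 870 with the block and 295 without it, and leaving out a line gave 70 to 669. For genes differing between lines, leaving out a line gave 193 to 455 over all genes and 0 to 0 of the 40. The count for the further recombination and Fanconi genes was 0 without the block, 0 to 1 without a line, and 2 with the 50th percentile filter, quantile normalization or eBayes with trend and robust settings. Further checkpoint genes gave 0 to 2 without a line. Base excision genes gave 0 without the block and 0 to 1 without a line. The median difference of the 40 genes ran from 0.03 to 0.112 without a line. Among the 40 genes and 17 others with printed values, signs turned only for genes not called, and none of the turned values was called. These were Exo1 (-0.01), Palb2 (-0.02) and Fancb (-0.02) after median centring, Rad9a (0.02) and Mdc1 (0.03) after quantile normalization, and Bard1 (0.00) on the mean of its probe sets. Without a line, values ran from -0.19 to 0.02 for Chek2, -0.31 to 0.04 for Brca1, -0.04 to 0.12 for Eme1, -0.06 to 0.16 for Fanci, -0.12 to 0.04 for Topbp1, -0.15 to 0.17 for Exo1, -0.14 to 0.10 for Palb2, -0.12 to 0.01 for Rad1, -0.04 to 0.13 for Rad54l, -0.05 to 0.03 for Rad9a, -0.12 to 0.11 for Fancb, -0.07 to 0.07 for Mdc1 and -0.11 to 0.13 for Mki67. The 7 called genes had 77 values under alternatives, all in the reported direction, of which 54 kept the call and 23 lost it. The 50 genes not called had 549 values, of which 527 kept direction and stayed uncalled, 19 turned sign and 3, all of Dna2, gained a call. Fits without a line have fewer residual degrees of freedom, and the cause of the other changes was not tested.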
